A study of Mus musculus with 12 samples.

Results

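The 10 genes described here serve the visual cycle and membrane transport of the retinal pigment epithelium (RPE): Rpe65, Lrat, Rdh5, Rgr, Rrh, Stra6, Ttr, Best1, Slc16a8 and Kcnj13. They were chosen as a fixed list, found by matching the gene identifiers of the count files to mouse symbols, to gauge how much RPE was carried with each retina. They are 10 of 54146 genes counted, and all 10 passed the filter on low counts that left 18628 genes to test. RNA was taken from whole retinas of 12 mice, 1 library per mouse, with mice 1 to 3 as P30 controls and mice 4 to 6, 7 to 9 and 10 to 12 as PR-specific Otx2 cKO mice at P32, P34 and P38. The cKO mice carried Crx-CreERT2 and Otx2 flox/flox and were killed 2, 4 and 8 d after tamoxifen given at P30, and the labels call the P30 mice control without further alleles. Crx-CreERT2 directs Cre to photoreceptors (PRs), so the RPE and bipolar cells were meant to keep their intact Otx2. The control mice were younger than every cKO mouse, so age, tamoxifen and deletion changed together. The labels name separate mice, and the p-values measure the spread between them.

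The RPE is a sheet of pigmented cells behind the PRs. It takes up retinol from the blood, stores it as an ester, isomerizes it to the cis form that rods and cones need, and moves ions, water and lactate between the retina and the choroid. A dissected retina carries some RPE cells with it, and in such bulk libraries fewer cells of a type and less RNA per cell cannot be told apart. OTX2 is a homeodomain protein of RPE, PRs and bipolar cells. It binds the core TAATCC, which the related protein CRX of PRs also binds.

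That core was searched on both strands (TAATCC or GGATTA) in the 250 bases before each RefSeq start of GRCm38.p6. It was found in 3 of the 12 windows of these genes, that is in 3 of the 9 genes with an entry, against 6.25% of 32851 windows of all genes. Only 5 of the 10 RPE pigment genes had an entry, and of their 5 windows the core was in 1, that of Dct. Ttr was not among the entries. The 3 windows are shown because they hold this core, which is in capitals. A match is only a description of the letters. The window of Rpe65 is chr3:159598931-159599180 on the plus strand, with the core starting 42 bases before the start. The window of Rgr is chr14:37049015-37049264 on the minus strand, with the core at 167 bases. The window of Best1 is chr19:10001634-10001883 on the minus strand, with the core at 227 bases.
Rpe65: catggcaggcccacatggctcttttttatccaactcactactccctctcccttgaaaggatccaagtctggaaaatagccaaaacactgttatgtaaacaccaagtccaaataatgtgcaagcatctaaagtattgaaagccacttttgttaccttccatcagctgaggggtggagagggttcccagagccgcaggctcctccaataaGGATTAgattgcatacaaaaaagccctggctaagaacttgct
Rgr: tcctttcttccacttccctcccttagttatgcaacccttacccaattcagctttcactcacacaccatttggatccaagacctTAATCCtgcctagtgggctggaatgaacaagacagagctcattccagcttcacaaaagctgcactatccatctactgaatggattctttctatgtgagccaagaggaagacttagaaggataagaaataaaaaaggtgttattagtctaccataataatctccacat
Best1: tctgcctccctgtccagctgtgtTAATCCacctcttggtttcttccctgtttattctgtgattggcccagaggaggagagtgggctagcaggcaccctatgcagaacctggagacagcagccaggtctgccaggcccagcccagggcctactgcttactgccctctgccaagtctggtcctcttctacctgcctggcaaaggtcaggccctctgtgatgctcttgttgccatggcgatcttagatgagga

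Total counts on genes were 29701483 to 60145034 per mouse, so that 3 counts were worth 0.0473 to 0.102 CPM (counts relative to the library total, scaled by the TMM method of edgeR), a floor that covers counting error only. Otx2, the targeted gene, had 293 to 328 CPM in the P30 mice and 307 to 377 CPM in the 9 cKO mice over all its exons, which do not separate deleted from intact alleles (log2 fold change 0.16 ± 0.09 SE for all cKO mice, adjusted p = 0.99997, quasi-likelihood test of edgeR, Benjamini-Hochberg). The rod transducin gene Gnat1 had 11918 to 13194 CPM in P30 mice and 10635 to 19548 CPM in cKO mice. Markers of other eye tissues varied from mouse to mouse, and none of the lens, ciliary epithelium or stroma markers was at 0 in any mouse. The 5 lens markers summed to 71.4 to 5931 CPM at P30, 101 to 6368 at P32, 30.8 to 94.3 at P34 and 518 to 1316 at P38. The 7 ciliary epithelium markers summed to 122 to 138, 58.2 to 148, 12.3 to 18.7 and 58.2 to 107 CPM in the same order.

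None of the 10 RPE genes was called changed against the P30 controls at any age. Calls needed a log2 fold change past 0.5 in either direction and, in the quasi-likelihood test of edgeR, a Benjamini-Hochberg adjusted p no higher than 0.05. At P32 0 of 10 were called, beside 0% of all genes in each direction, and at P38 likewise 0 of 10 beside 0%. At P34 0 of 10 were called, beside 0.66% of all genes called lower and 0% called higher. With the 9 cKO mice as one group, 0 of 10 were called beside 0.0537% of all genes lower and 0% higher. At an unadjusted p of at most 0.05 with the same limit on the fold change, 0 of 10 passed in each of these 4 comparisons, where 1.77, 5.42, 2.66 and 1.57% of all genes passed as lower and 1.13, 0.854, 0.805 and 0.311% as higher. DESeq2 also called 0 of 10 in each. Over the 10 genes the log2 fold changes had a median of -0.18 (P32), -0.06 (P34), 0.14 (P38) and -0.02 (all cKO mice), against -0.01, -0.00, -0.01 and 0.01 over all genes tested. The genes with a negative fold change numbered 8, 6, 4 and 5 of 10, where 51.5, 50.2, 51.8 and 47.3% of all genes had one. The comparisons share the 3 P30 mice.

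**Figure D1:**
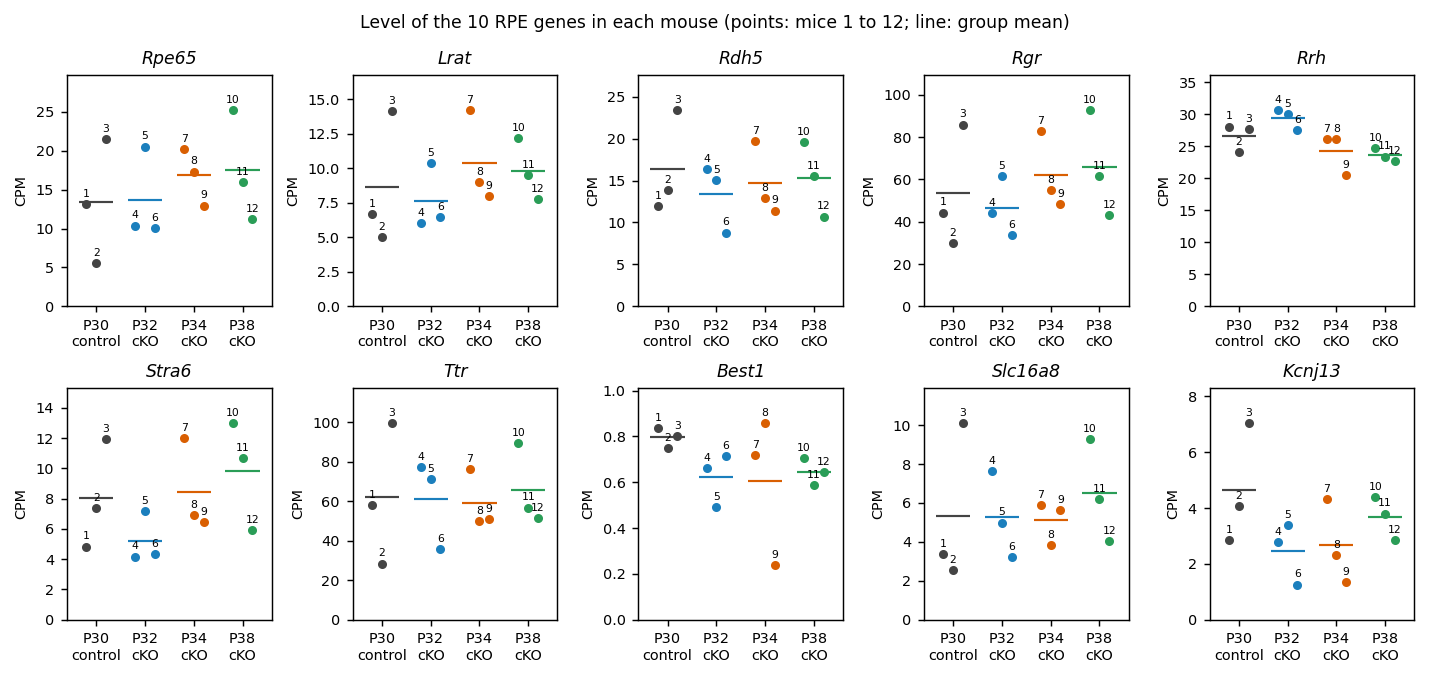
Level of each of the 10 RPE genes in CPM (vertical axis, from 0) in each of the 12 mice (points, numbered), by group, with the group mean as a line. P30 mouse 3 and P38 mouse 10 are among the 3 highest mice in 9 and 8 of the 10 genes, and the groups overlap in nearly every panel.

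The visual cycle enzymes come first. Rpe65 (ENSMUSG00000028174, chr3:159599175-159625321, plus strand) encodes the isomerase that turns retinyl ester into the cis retinol. It had 13.2, 5.59 and 21.5 CPM in P30 mice 1 to 3 and 10.4, 20.5 and 10.1 CPM in P32 mice 4 to 6. It had 20.2, 17.3 and 13.0 CPM in P34 mice 7 to 9 and 25.3, 16.0 and 11.2 CPM in P38 mice 10 to 12. The P30 mice alone thus ran from the lowest value of all 12 mice to the second highest, and every cKO mouse but P38 mouse 10 fell inside their range. Against P30, the log2 fold changes of Rpe65 were 0.03 (P32), 0.33 (P34) and 0.39 (P38), each ± 0.44 (SE), the last with a 95% interval from -0.58 to 1.36. Without P30 mouse 2 the P34 value was -0.04, and without P30 mouse 3 it was 0.83.

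Lrat (ENSMUSG00000028003, chr3:82892579-82903973, minus strand) encodes the acyltransferase that stores retinol as the ester used by RPE65. Its levels were 6.69, 4.99 and 14.1 CPM at P30 and 6.0001, 10.4 and 6.48 CPM at P32. They were 14.2, 8.99 and 7.96 CPM at P34, then 12.2, 9.4996 and 7.74 CPM at P38. Again P30 mouse 2 was the lowest of all mice, while P30 mouse 3 was level with P34 mouse 7 at the top. For P34 against P30 its log2 fold change was 0.28 ± 0.37 (SE, 95% interval -0.53 to 1.09).

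Rdh5 (ENSMUSG00000025350, chr10:128913593-128922888, minus strand) encodes a retinol dehydrogenase that oxidizes the cis retinol to the aldehyde. The controls had 11.9, 13.8 and 23.4 CPM and the P32 mice 16.4, 15.0 and 8.80 CPM. The P34 mice had 19.7, 12.9 and 11.4 CPM and the P38 mice 19.6, 15.6 and 10.7 CPM. In each cKO group 1 mouse lay below the lowest control, and the groups overlapped. Its log2 fold change was -0.29 ± 0.32 (SE) at P32 and -0.15 ± 0.32 at P34. Rdh5 overlaps Bloc1s1 on the same strand, and reads on both genes were not counted for either.

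The RPE opsins were Rgr and Rrh. Rgr (ENSMUSG00000021804, chr14:37034909-37048964, minus strand) encodes an opsin that binds the trans aldehyde and is made in RPE and Müller glia. It had 44.3, 30.0 and 85.9 CPM at P30 and 44.1, 61.7 and 33.8 CPM at P32. It had 82.7, 55.0 and 48.3 CPM at P34, then 92.8, 61.6 and 43.1 CPM at P38. Its order over the mice was close to that of Lrat and Rpe65, with P30 mouse 2 lowest and P38 mouse 10 highest. The estimates against P30, as log2 fold changes, were -0.20 (P32), 0.22 (P34) and 0.30 (P38), each ± 0.38 (SE).

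Rrh (ENSMUSG00000028012, chr3:129804408-129822587, minus strand) encodes peropsin, an opsin of the RPE microvilli. It was the steadiest of the 10 genes. The controls had 28.1, 24.1 and 27.7 CPM and the P32 mice 30.7, 30.0 and 27.5 CPM. The P34 mice had 26.1, 26.1 and 20.5 CPM and the P38 mice 24.7, 23.4 and 22.7 CPM. The highest mouse exceeded the lowest by only 1.499-fold, and the SD within groups was 0.13 on the log2 scale. All 3 P34 mice and all 3 P38 mice were below all 3 P32 mice. Against P30, its log2 fold changes were 0.14 (P32), -0.14 (P34) and -0.18 (P38), each ± 0.11 (SE), and the 95% intervals of these 3 values lay between -0.42 and 0.39.

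Of the retinol carriers, Stra6 (ENSMUSG00000032327, chr9:58063788-58153996, plus strand) encodes the receptor through which RPE cells take up retinol from its binding protein in blood. It had 4.83, 7.39 and 11.9 CPM at P30 and 4.17, 7.16 and 4.34 CPM at P32. It had 12.0, 6.91 and 6.43 CPM at P34, then 13.0, 10.7 and 5.91 CPM at P38. Every P32 mouse was below the P30 median, yet the groups overlapped. Its log2 fold change was -0.62 ± 0.39 (SE, 95% interval -1.46 to 0.22) at P32 and 0.30 ± 0.38 at P38.

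Ttr (ENSMUSG00000061808) encodes transthyretin, the carrier of thyroxine and of the retinol-binding protein, which RPE cells make in large amounts. The controls had 58.1, 28.4 and 99.5 CPM and the P32 mice 77.2, 71.2 and 35.6 CPM. The P34 mice had 76.2, 49.8 and 50.8 CPM and the P38 mice 89.3, 56.7 and 51.4 CPM. Both the lowest and the highest value of all 12 mice were from P30 controls. Fold changes were near 0, at -0.01, -0.07 and 0.09 on the log2 scale for the 3 ages in turn, each ± 0.41 (SE).

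Among the channels and the transporter, Best1 (ENSMUSG00000037418, chr19:9985174-10001633, minus strand) encodes a chloride channel of the basolateral RPE membrane. It had only 7 to 53 counts per mouse. The controls had 0.836, 0.747 and 0.802 CPM and the P32 mice 0.660, 0.491 and 0.715 CPM. The P34 mice had 0.718, 0.857 and 0.237 CPM and the P38 mice 0.704, 0.586 and 0.645 CPM. The P32 and the P38 mice were all below the 3 controls, whereas at P34 mouse 8 was above them. Among the 10 genes, Best1 alone separated a cKO group from the controls: 1 of 10 lay below them at P32 beside 4.39% of all genes, 0 at P34 beside 9.67% and 1 at P38 beside 7.96%. Above the controls lay 0 of 10 at each age, beside 5.26, 10.4 and 8.23% of all genes. Taking all 9 cKO mice, 0 lay below and 0 above, beside 0.478 and 0.123%. Its log2 fold change was -0.35 ± 0.37 (SE, 95% interval -1.15 to 0.45) at P32 and -0.30 ± 0.37 (-1.10 to 0.50) at P38.

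Slc16a8 (ENSMUSG00000032988, chr15:79251014-79254761, minus strand) encodes the lactate transporter of the basolateral RPE membrane. It was at 3.39, 2.56 and 10.1 CPM at P30 and at 7.62, 4.99 and 3.20 CPM at P32. It was at 5.91, 3.82 and 5.65 CPM at P34 and at 9.27, 6.19 and 4.04 CPM at P38. One control was the highest and another the lowest of all 12 mice. Its log2 fold change was -0.05 ± 0.49 (SE, 95% interval -1.12 to 1.02) at P34, and this interval was the widest among the 10 genes there. Without P30 mouse 3 the value was 0.77, and without P30 mouse 2 it was -0.39.

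Kcnj13 (ENSMUSG00000079436, chr1:87386363-87394729, minus strand) encodes an inwardly rectifying potassium channel of the apical RPE membrane. The controls had 2.84, 4.06 and 7.04 CPM and the P32 mice 2.79, 3.39 and 1.26 CPM. The P34 mice had 4.33, 2.33 and 1.35 CPM and the P38 mice 4.39, 3.80 and 2.85 CPM. Kcnj13 had the most negative fold change of the 10 genes at P32, P34 and P38 and over all cKO mice, and P30 mouse 3 stood above every other mouse. Its log2 fold change was -0.90 ± 0.46 (SE, 95% interval -1.91 to 0.11, adjusted p = 0.698, edgeR) at P32 and -0.79 ± 0.46 (-1.79 to 0.22, adjusted p = 0.585) at P34. At P38 it was -0.33 ± 0.46, and without P30 mouse 3 this became 0.10. Kcnj13 overlaps Gigyf2 on the opposite strand, and whether strand was used in counting is not given in the sources used here. Lrat, Stra6 and Slc16a8 also overlap annotated genes of the opposite strand, and Stra6 overlaps Gm16131 on its own strand.

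**Figure D2:**
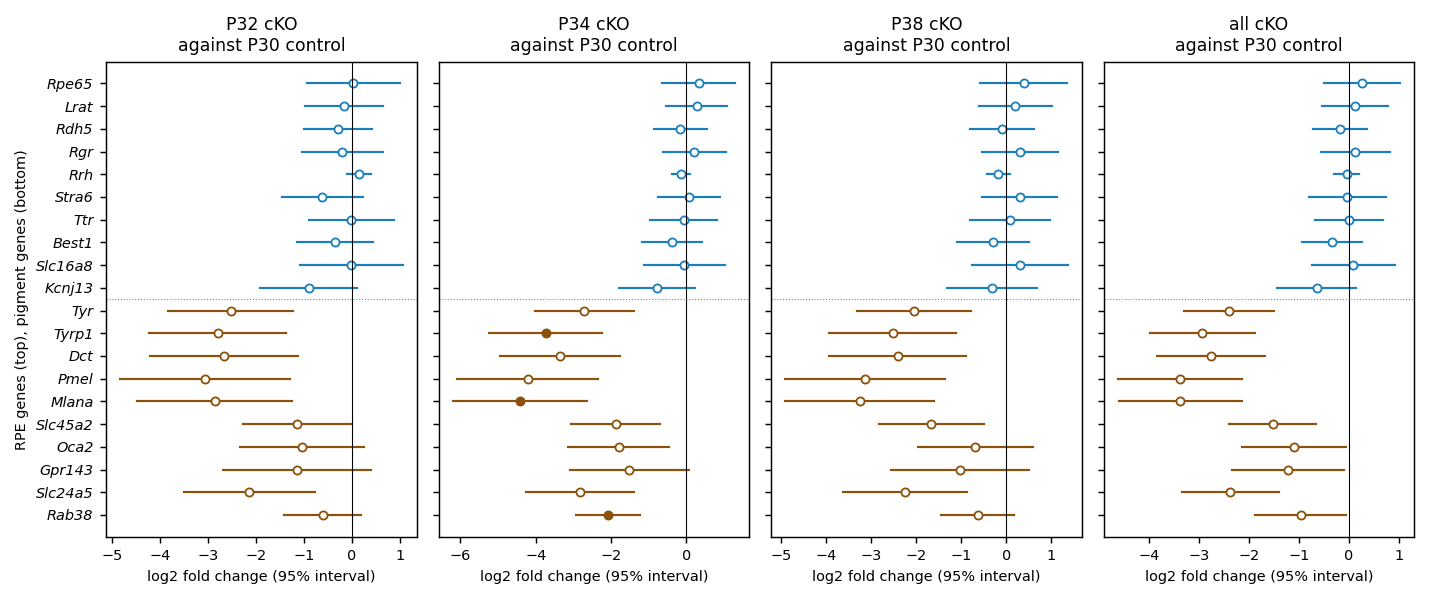
Log2 fold change against the P30 controls (horizontal axis, with 95% intervals as lines) of the 10 RPE genes (blue, top) and 10 pigment genes (brown, bottom) at P32, P34, P38 and over all 9 cKO mice, with filled points for called genes. All intervals of the RPE genes include 0, with estimates from -0.90 to 0.39, while the pigment genes lie at -0.61 to -4.42 at the 3 ages.

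Between the cKO ages the RPE genes were also not called. From P32 to P34, 0 of 10 were called beside 0.242% of all genes lower and 0% higher. From P34 to P38, 0 of 10 were called beside 0% lower and 0.199% higher, and from P32 to P38, 0 of 10 were called beside 0% in each direction. The shares of all genes at the unadjusted p and the same limit were 8.93% lower and 5.49% higher from P32 to P34, 0.8 and 3.01% from P34 to P38, and 6.23 and 5.68% from P32 to P38. P32 mouse 6 stood apart from the other P32 mice in these comparisons: without it, 1310 genes were called lower and 1416 higher from P32 to P34 in place of 45 and 0, and 704 lower and 1242 higher from P32 to P38 in place of 0 and 0, yet still 0 of the 10. From P32 to P38, DESeq2 called 414 genes lower and 480 higher, and 0 of the 10. Rrh had the lowest unadjusted p of the 10, with a log2 fold change of -0.28 ± 0.11 (SE, unadjusted p = 0.0322, adjusted p = 0.152 in the edgeR test) from P32 to P34 and -0.32 ± 0.11 (unadjusted p = 0.0171, adjusted p = 0.148) from P32 to P38. Its groups did not overlap in these comparisons, as 1 of 10 genes beside 13.6% of all genes lower from P32 to P34 and 13.2% from P32 to P38, while 0 of 10 did so on the higher side beside 14.8 and 13.3%. From P34 to P38, 0 of 10 were without overlap, beside 4.58% lower and 5.36% higher. Stra6 had 0.92 ± 0.39 (SE, unadjusted p = 0.0356, adjusted p = 0.189) from P32 to P38. It was the only member past the unadjusted p and the limit on the fold change in any of the 7 comparisons.

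The 10 genes varied between mice of the same group. The SD within groups on the log2 scale was 0.66 for Rpe65, 0.61 for Ttr, 0.69 for Slc16a8 and 0.66 for Kcnj13, and the group means of these genes spanned 0.50, 0.22, 0.46 and 0.91. For Best1 the SD was 0.47, where counting alone gives 0.28 at its median count. The highest mouse exceeded the lowest by 5.603-fold for Kcnj13, 4.52-fold for Rpe65 and 2.66-fold for Rdh5. P30 mouse 3 was among the 3 highest mice in 9 of 10 genes and P38 mouse 10 in 8 of 10. P32 mouse 6 was among the 3 lowest in 8 of 10, and P30 mouse 2 was the lowest of all in 5 of 10.

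Most of the genes varied together over the mice. The Pearson correlation of a gene's log2 CPM with the mean of the other 9 over the 12 mice was 0.939 for Rgr, 0.888 for Rdh5, 0.860 for Lrat, 0.837 for Ttr, 0.779 for Rpe65, 0.743 for Stra6, 0.743 for Slc16a8 and 0.701 for Kcnj13. It was 0.186 for Rrh and 0.138 for Best1, which did not follow the others. The closest pairs were Lrat and Rgr (r = 0.955), Rpe65 and Rgr (r = 0.935) and Rpe65 and Lrat (r = 0.917). Next came Ttr with Slc16a8 (r = 0.889), Ttr with Rgr (r = 0.862) and Rdh5 with Kcnj13 (r = 0.861). These correlations are descriptions, and genes of 1 mouse share a library, its dissection and its scaling. Outside the list, the genes most like the mean of the 10 were Fap (r = 0.922), Car12 (0.915), Slc6a20a (0.882), Slc7a10 (0.879) and Tdrd7 (0.874) over the same 12 mice.

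Per kilobase of exon, the mean level over the 12 mice was highest for Ttr at 52.3 ± 17.8 CPM per kb (SD), followed by Rgr at 11.9 ± 4.31, Rpe65 at 7.94 ± 2.98, Rdh5 at 5.32 ± 1.52 and Rrh at 4.395 ± 0.513. Kcnj13 (2.65 ± 1.23), Slc16a8 (2.44 ± 1.06), Lrat (1.70 ± 0.579) and Stra6 (1.35 ± 0.544) came next, and Best1 was last at 0.258 ± 0.0660. The ranges over the mice of Ttr and Rgr did not overlap, nor did those of Stra6 and Best1, while all other neighbours in this order overlapped.

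**Figure D3:**
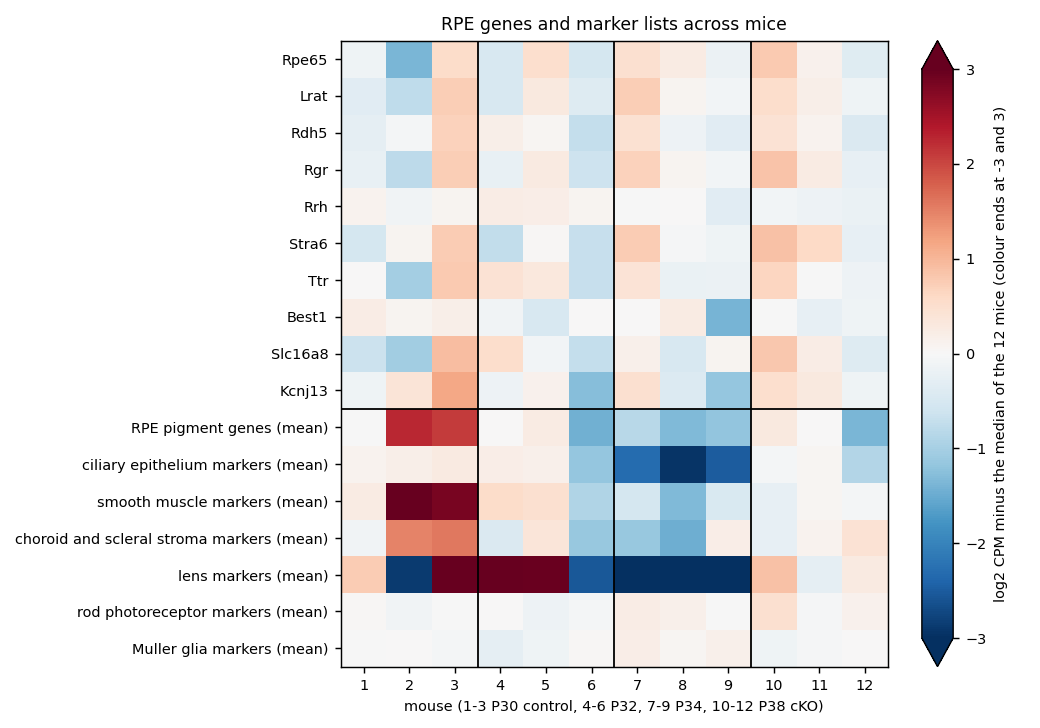
Level of the 10 RPE genes (top rows) and mean level of 7 marker lists (bottom rows) in each mouse, as log2 CPM minus the median of the 12 mice, on a colour scale that ends at -3 and 3. Columns of mice 3, 5, 7 and 10 are above the median in 8 or more RPE genes, whereas the pigment genes are highest in P30 mice 2 and 3.

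The pigment genes of the RPE were set beside these 10 genes. The list held 10 genes of melanin synthesis and melanosomes (Tyr, Tyrp1, Dct, Pmel, Mlana, Slc45a2, Oca2, Gpr143, Slc24a5 and Rab38), which pigment cells of the choroid, iris and ciliary body use as well. All 10 had negative fold changes at each age, and the median was -2.33 (P32), -2.77 (P34) and -2.15 (P38) on the log2 scale. At P34, 3 of 10 were called lower, namely Tyrp1 (-3.73 ± 0.69 SE, adjusted p = 0.0316 in the edgeR test), Mlana (-4.42 ± 0.82, adjusted p = 0.0316) and Rab38 (-2.08 ± 0.39, adjusted p = 0.0354), and 9 of 10 passed an unadjusted p. None of the 3 was called when P30 mouse 2, P30 mouse 3 or any P34 mouse was left out, with adjusted p between 0.0960 and 0.196. In a robust fit Tyrp1 (adjusted p = 0.0954) and Mlana (0.0598) were not called either, nor was Tyrp1 with sex as a covariate (0.0513). At P32 and P38 0 were called and 7 passed an unadjusted p. Pmel, the fibril protein of melanosomes, was at -4.21 ± 0.86 at P34 (adjusted p = 0.0546). Dct, the tautomerase of melanin synthesis, had 61.7, 390.4 and 310 CPM in P30 mice 1 to 3 and 14.0 to 69.7 CPM in the cKO mice, so P30 mouse 1 was inside the cKO range.

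**Figure D4:**
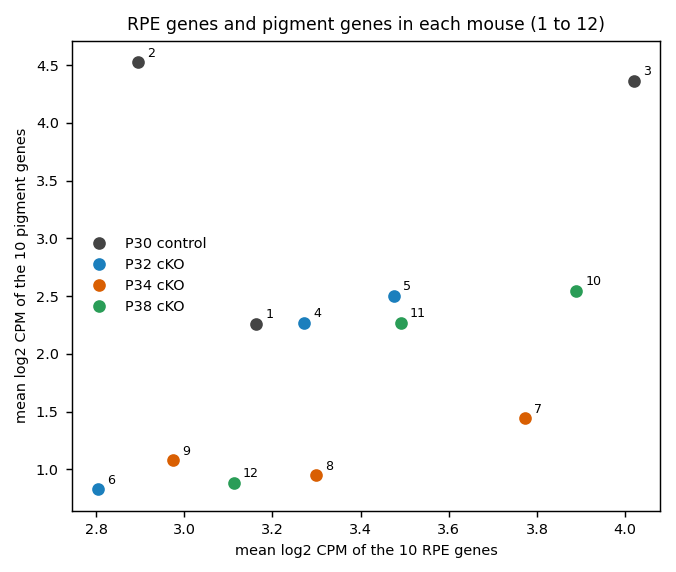
Mean log2 CPM of the 10 RPE genes (horizontal axis) against mean log2 CPM of the 10 pigment genes (vertical axis) in each of the 12 mice (points, coloured by group). P30 mouse 2 has the highest pigment mean at nearly the lowest RPE mean, and the 3 P34 mice have low pigment at RPE means across most of the range.

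Set beside each other in a mouse, the lists came apart. The 10 RPE genes summed to 174, 122 and 302 CPM in the controls and 200.01, 225 and 132 CPM in the P32 mice. They summed to 262, 184 and 166 CPM in the P34 mice and 291, 204 and 160.3 CPM in the P38 mice. The pigment genes summed to 125, 853 and 698 CPM, then 103, 126 and 34.03, then 60.4, 42.5 and 43.8, and then 142, 114 and 34.6 CPM. Abundant genes weighed most in these sums, with Ttr and Rgr at means of 62.0 and 56.9 CPM over the 12 mice and Dct and Pmel at 91.6 and 52.0 CPM. The ratio of pigment to RPE sums was 0.719, 7.005 and 2.31 in the P30 mice and 0.216 to 0.560 in the 9 cKO mice. Thus all 3 controls lay above all 9 cKO mice in this ratio, mouse 1 by the least, and P30 mouse 2 combined the lowest RPE sum of the 12 mice with the highest pigment sum. The means of the lists over the 12 mice had a Pearson r of 0.338 (Spearman coefficient 0.469), which was -0.06 without P30 mouse 3 and P38 mouse 10 and 0.674 within the 9 cKO mice. In the same order the mean of the 10 had r of 0.475, 0.398 and 0.610 with 5 rod genes, Gnat1 and Sag among them, and of 0.651, 0.352 and 0.717 with the 16 other RPE epithelial genes described further on. With the lens markers it had 0.453, 0.164 and 0.199, and with other retinoid handling genes 0.533, 0.110 and 0.572. Lists of 1 mouse share its library and scaling, and the part of rods or other tissues in the levels of the 10 genes was not tested. No test was made of the ratio, since the lists were chosen with values known.

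Some markers of other eye tissues were also called lower at P34 than at P30. The smooth muscle markers summed to 19.5 to 172 CPM at P30, 5.96 to 39.1 at P32, 4.63 to 7.14 at P34 and 11.4 to 15.2 CPM at P38, and 3 of the 4 tested were called lower at P34 (Acta2, -4.73, Myh11, -4.56 and Tagln, -3.51). These 3 calls were lost without P30 mouse 2, P30 mouse 3 or any P34 mouse (adjusted p from 0.0973 to 0.209, edgeR), those of Acta2 (0.120) and Myh11 (0.103) also in the robust fit, those of Myh11 (0.0773) and Tagln (0.0744) with only the groups compared, and that of Myh11 with sex as a covariate (0.0905). Over all cKO mice Myh11 (-4.43, adjusted p = 0.0260, edgeR) and Tagln (-3.04, adjusted p = 0.0280) were called lower too, and neither was with sex as a covariate (0.321 and 0.342) or without P30 mouse 2, P30 mouse 3, P32 mouse 6, any P34 mouse or P38 mouse 10 or 12. Tagln was also not called without P32 mouse 5 (0.0584) or P38 mouse 11 (0.0692) or with at least 1 CPM in at least 3 mice (0.0546). Myh11 stood at 46.7 and 53.2 CPM in P30 mice 2 and 3 and at 2.65 CPM in P30 mouse 1, the cKO mice having 0.863 to 3.07 CPM. The ciliary epithelium markers were called lower at P34 for 5 of 7 (Optc, -4.84, Otx1, -3.52, Zic1, -1.36, Zic2, -1.60 and Zic4, -3.51). Optc and Zic4 were called without any one mouse, whereas the count fell to 3 without P30 mouse 2, P30 mouse 3 or P34 mouse 7 and to 2 without P34 mouse 8 or 9. Of the 5 choroid and scleral stroma markers, Col1a2 (-1.90) was called lower, a call lost without P34 mouse 7 (adjusted p = 0.0871, edgeR) or 8 (0.0525). Wfdc1 (-1.67, ciliary), Dcn (-2.94) and Pdgfra (-0.42, both stroma) were not called. The lens and Müller glia lists had 0 called in edgeR at any age against P30, where 5 of 5 lens markers at P34 and 1 of 5 at P38 passed the unadjusted p with the same limit on the fold change and 0 Müller glia markers did, with log2 fold changes at P34 of -4.95 for Crygs, -7.89 for Mip and -6.26 for Lim2 in lens and 0.16 and 0.02 for Glul and Slc1a3 in Müller glia. The rod genes Gnat1 and Sag were not called either, with 0.34 and 0.13 at P34. The 10 RPE genes were not called lower at P34, where the summed level of all 10 was 166 to 262 CPM against 122 to 302 CPM at P30. The part of these tissues in the levels of the RPE genes was not tested.

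The other genes of retinoid handling, most of them used by PRs and Müller glia, were taken from a list of 20, of which 19 could be tested. Only Aldh1a3, a retinaldehyde dehydrogenase, was called, and only at P34 (-2.63 ± 0.45 SE, adjusted p = 0.0205 in the edgeR test), with 1.49 to 2.44 CPM at P30 and 0.0980 to 0.440 CPM at P34. Without P30 mouse 3 or without any of the P34 mice it was no longer called, with adjusted p from 0.0576 to 0.0862. The 3 genes of the list with the highest levels were Rbp3, the retinoid carrier of the interphotoreceptor matrix, at 6744 ± 2064 CPM (SD, n = 12), Abca4, the retinoid flippase of PR discs, at 1757 ± 419 CPM and Rdh12, a retinol dehydrogenase of PRs, at 522 ± 56.9 CPM. Rlbp1, the cis-retinoid binding protein of RPE and Müller glia, was at 465 ± 54.8 CPM. None of these 4 was called, with log2 fold changes at P34 of 0.49 ± 0.22, 0.36 ± 0.17, -0.04 ± 0.14 and 0.11 ± 0.13.

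Of 16 other genes of the RPE epithelium, many of which neurons or other epithelia express as well, 2 were called lower at P34. These were Cldn19, a claudin of RPE tight junctions, at -2.99 ± 0.28 (SE, adjusted p = 0.000522 in the edgeR test), and Slc4a5, a bicarbonate cotransporter, at -0.84 ± 0.17 (adjusted p = 0.0432). The controls had 7.74, 12.7 and 9.69 CPM of Cldn19 and the P32 mice 7.23, 6.25 and 3.77 CPM. The P34 mice had 1.41, 1.25 and 1.12 CPM and the P38 mice 3.93, 5.75 and 4.51 CPM, so that all P34 mice were below all others. It was called lower from P32 to P34 (-2.19 ± 0.28, adjusted p = 0.00603) and higher from P34 to P38 (1.91 ± 0.28, adjusted p = 0.0150), and so were the ciliary markers Optc and Zic4 and the stroma marker Col1a2. Of these, Optc was called in both comparisons without any one mouse. The calls of Zic4 were lost without any P34 mouse (adjusted p from 0.0547 to 0.160 over both comparisons, edgeR), that from P32 to P34 with only the groups compared (0.123), and that from P34 to P38 without P38 mouse 11 (0.0967). Those of Col1a2 were lost without P34 mouse 7 or 8 and with only the groups compared (0.0767 to 0.306 over both comparisons), that from P32 to P34 without P32 mouse 4 (0.0634) or 5 (0.145), and that from P34 to P38 without P38 mouse 10 (0.182) or 11 (0.248) and with library totals (0.0503). The lower call of Slc4a5 was lost without P30 mouse 2 or 3 or any P34 mouse (adjusted p from 0.140 to 0.196) and with sex as a covariate (0.0905). The call of Cldn19 against P30 held without any one mouse, whereas that from P32 to P34 was lost without P34 mouse 8 (0.0579) or 9 (0.0542) and with only the groups compared (0.0905), and that from P34 to P38 without any P34 mouse or P38 mouse 11 (0.0921 to 0.125). The most abundant of the 16 genes, Trpm1 (277 ± 74.6 CPM, SD, n = 12), Slc16a1 (274 ± 23.7 CPM) and Krt18 (96.4 ± 20.8 CPM), were not called, and Slc6a20a of this list was also one of the genes most like the 10. Over all 16 genes the log2 fold changes had a median of -0.21, -0.26 and -0.09 at the 3 ages.

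Sex differed between the groups as read from Xist and Y-linked genes: the 3 P30 mice were female, and 1, 2 and 2 of the 3 cKO mice at P32, P34 and P38 were male. With sex in the fit, 0 of 10 RPE genes were called at each age. The log2 fold change at P34 then turned to -0.08 for Rgr and to -0.20 for Stra6. For all cKO mice those of Lrat, Rgr, Ttr and Slc16a8 turned from positive to negative.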

How the data were processed

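Whole retinas of 12 mice were sequenced as 50-base single reads from stranded, poly(A)-selected libraries. Per the methods and the submitters' processing notes, base calling used bcl2fastq 2.17.1.14, reads were mapped to mm10 with STAR 2.5.3a, and HTSeq 0.6.1p1 counted reads in union mode on Ensembl genes. The authors deposited these counts as whole numbers per gene and mouse, without normalization. Reads without a unique position (23.7 to 32.2%) or on no gene were left out of library sizes. The strand option is not given in the sources used here.

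Symbols and GRCm38 positions came from GENCODE M21 (99.9% of genes named). CPM used TMM factors from edgeR 4.0.16 in R 4.3.3, and log2 CPM a prior count of 2. Genes past filterByExpr (18628) entered a quasi-likelihood fit of all 12 mice with 1 mean per group, and a separate fit took the 9 cKO mice as one group. P-values were Benjamini-Hochberg adjusted over all genes tested. SE is the log2 fold change over the square root of F. Level per kb used the summed length of all annotated exons. Groups came from the labels.

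The 10 genes and all marker lists were chosen with earlier results of these data known. Named are the 10 genes, list genes called in any comparison, the 3 most abundant of each list, the 5 genes most correlated with the mean of the 10, and Otx2, except for an item that is not reported here. On counts simulated for P34 against P30, 97 of 100 genes with a change of 2 log2 units were called. With 1 log2 unit it was 69 of 100, and 7 unchanged genes were called, among 18399 tested. The changed genes were drawn at random from those with a mean of at least 1 CPM, each gene independently. These shares are thus not those of the 10 RPE genes, most of which varied together and of which Best1 lay below that mean. How large a change would have been called in them was not tested. The alternatives were other scaling, filters, fits, thresholds, DESeq2 1.42.0, sex as a covariate and leaving out each mouse.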

Additional observations from a re-analysis of the deposited data

How the results depend on the processing

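For the 10 RPE genes, the count of called genes was 0 in every comparison under every alternative scaling, filter, fit and test, with sex as a covariate, and without any one mouse (0 to 0). The exception was the unadjusted p, which gave 1 (Stra6, higher) from P32 to P38. No paired analysis was possible because the mouse numbers are unique to each group. Of 238 fold changes recomputed under other settings, 230 kept their direction. Most that reversed did so with sex as a covariate. These were Rgr (-0.078) and Stra6 (-0.20) at P34, and Lrat (-0.075), Rgr (-0.19), Ttr (-0.25) and Slc16a8 (-0.25) for all cKO mice. The highest value reported for all cKO mice was 0.26, and the count of 5 positive values of 10 was not kept with sex in the fit. Ttr for all cKO mice also reversed with library totals (-0.015) and with at least 1 CPM in at least 3 mice (-0.0023), against 0.0022 as reported.

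Leaving out 1 mouse reversed 31 of 204 fold changes, and most extremes came from P30 mice 2 and 3. At P34 the ranges were -0.037 to 0.83 for Rpe65, -0.024 to 0.82 for Lrat, -0.43 to 0.18 for Rdh5, -0.068 to 0.73 for Rgr, -0.27 to 0.46 for Stra6, -0.42 to 0.43 for Ttr and -0.39 to 0.77 for Slc16a8. At P38 the range was -0.59 to 0.10 for Kcnj13. For all cKO mice they were -0.11 to 0.76 for Rpe65, -0.16 to 0.66 for Lrat, -0.36 to 0.16 for Rdh5, -0.16 to 0.64 for Rgr, -0.30 to 0.36 for Stra6, -0.34 to 0.51 for Ttr and -0.25 to 0.91 for Slc16a8. The cause was not tested.

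Over all genes, 123 were called lower at P34, against 353 by DESeq2, 294 without a filter, 228 with only the groups compared and 43 to 148 without 1 mouse. From P32 to P34 the 45 called lower became 837 by DESeq2, 425 without a filter, 11 with only the groups compared, 87 with sex as a covariate and 14 to 40 without 1 mouse other than mouse 6, and the 0 called higher became 555 by DESeq2, 231 without a filter, 0 with only the groups compared and 5 with sex as a covariate. From P32 to P38, with 0 in each direction, DESeq2 called 414 lower and 480 higher, and 82 and 119 were called without a filter. From P34 to P38 the 37 called higher became 137 by DESeq2, 112 without a filter, 70 with only the groups compared and, without 1 mouse, 12, 8 and 15 (P34 mice 7 to 9) and 21, 16 and 50 (P38 mice 10 to 12). Against P30, where 0 were called at P32 and P38, the calls by DESeq2 were 17 (lower) and 8 (higher) for P32, then 34 and 11 for P38. Without a filter they were 17 and 6, then 15 and 3, and without P30 mouse 1, 19 were lower at P32 and 13 at P38. With all cKO mice as one group, the 10 called lower became 40 by DESeq2. A fit with 1 mean per group, the 3 cKO means averaged against P30, called 67 lower. The 10 became 26 without a filter, 18 with library totals, 2 with at least 1 CPM in at least 3 mice and 0 with sex as a covariate. They became 48 without P30 mouse 1, 12 without P32 mouse 4, 4 without P32 mouse 5, 1 without P38 mouse 11 and 0 without any one of the other 8 mice. Of the 15 marker-list genes called at P34, 15 were still called by DESeq2, 12 with sex as a covariate, 11 in a robust fit and 3 to 15 without 1 mouse. With 3 mice per group, the precision differed between the RPE genes, from an SE of 0.11 log2 units for Rrh to 0.49 for Slc16a8 at each age against P30.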
